A study of Arabidopsis thaliana with 9 samples.

Results

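COR47 (AT1G20440) and STZ (AT1G27730) are a pair of Arabidopsis abiotic stress genes, each measured by 1 transcript cluster (the set of probes summarised into 1 value), 2 of the 16722 clusters that could be paired with a single gene. They were picked by name with their values in these leaves already known, so their levels and differences are given as a description and were not tested. The leaves were detached from 21-day-old plants of the accession Col-0 and lay in the dark for 48 h in MS medium. The medium held 10 µM of compound 6, 10 µM of compound 3, or 0.05% DMSO as the solvent control. The labels call both compounds cytokinins, and each of the 3 groups had 3 biological replicates of 10 to 15 leaves each, all from wild-type plants.

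COR47 encodes a dehydrin, one of the very hydrophilic late embryogenesis abundant proteins that plants make under cold, drought and abscisic acid and that protect membranes and proteins when water is short. STZ, also called ZAT10, encodes a zinc finger protein of the C2H2 type that represses transcription and is induced by salt, cold, drought, strong light and wounding. Cytokinins delay leaf senescence, while detachment and darkness speed it up, and abscisic acid and stress signalling accompany a senescing leaf.

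All values are log2 expression values as the authors deposited them, and they ran from 0.132 to 13.9 over the 9 arrays. Per the labels, control samples carry the numbers 7 to 9, compound 6 samples 16 to 18 and compound 3 samples 19 to 21. The labels do not say what these numbers stand for, and each run of numbers holds 1 group, so anything that follows them cannot be told apart from treatment. No leaves were measured before detachment or at the start of the dark period, so lower means lower than in control leaves at 48 h. Of 9 mesophyll marker genes 4 were measured, and their summed log2 values were 40.0 to 40.6 on compound 6 arrays, 39.0 to 39.7 on compound 3 arrays and 33.4 to 35.0 on control arrays. Of 5 guard cell markers 2 were measured, with summed log2 values of 13.9 to 14.9 with compound 6, 13.3 to 14.0 with compound 3 and 13.8 to 14.9 in control leaves. Markers of epidermis, phloem companion cells, roots and seeds were not analysed here.

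COR47 stood lower with both compounds than with DMSO alone, and lowest with compound 3. Its log2 values were 7.09, 7.18 and 7.14 with compound 6. With compound 3 they were 6.18, 6.59 and 6.15, and in control leaves 8.93, 9.22 and 9.11. No array of one group overlapped another group, so that the order compound 3, compound 6, control held for each of the 9 arrays. The gap was 0.51 between the highest compound 3 array and the lowest compound 6 array, and 1.75 between the highest compound 6 array and the lowest control array. Over all clusters, all compound 3 arrays lay below all control arrays in 13.4%, all compound 6 arrays below all control arrays in 12.7%, and all compound 6 arrays above all compound 3 arrays in 8.13%, shares from which nothing is read about COR47, since it was chosen on these contrasts.

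The mean of COR47 was 6.31 ± 0.24 with compound 3 against 9.09 ± 0.15 in control leaves (log2 scale, SD, n = 3), a log2 difference of -2.78 with an SE of 0.19, which is 6.87-fold lower. With compound 6 the mean was 7.14 ± 0.041 (SD, n = 3), a difference of -1.95 from control (SE 0.19), or 3.86-fold lower. Both differences use the same 3 control arrays. Compound 6 leaves held 1.78-fold more COR47 signal than compound 3 leaves, a log2 difference of 0.83 with a 95% interval of 0.41 to 1.24. COR47 was among the most lowered clusters in both comparisons with control, with 46 clusters lying lower in the compound 3 difference and 59 in the compound 6 difference. Nothing is read from these ranks, since COR47 was chosen on these contrasts.

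The strict order of COR47, every compound 3 array below every compound 6 array and every compound 6 array below every control array, was found in 252 clusters, 1.51% of those tested. In a leaf of many cell types, fewer cells that hold the transcript and less transcript per cell cannot be told apart. The 4 measured mesophyll markers stood higher on all treated arrays than on control arrays. All compound 3 arrays lay above control in 12.9% of clusters, and all compound 6 arrays in 11.9%. SBPASE differed most from control, by 2.77 with compound 3 and 3.13 with compound 6, and LHB1B2 least, by 0.52 and 0.82. Whether mesophyll cells or transcript per cell differed, and the part of either in the COR47 difference, was not tested. COR47 lies next to ERD10, a dehydrin gene of closely related sequence that was not analysed here. Whether ERD10 transcript adds to the COR47 signal was not tested.

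STZ showed another order, with the lowest values under compound 6 and no separation of compound 3 from control. Its log2 values were 7.84, 7.83 and 7.83 with compound 6. With compound 3 they were 9.01, 9.24 and 8.36, and in control leaves 8.67, 9.73 and 8.85. Every compound 6 array lay below every array of the other groups, by 0.52 from the lowest compound 3 array and by 0.83 from the lowest control array. All compound 6 arrays lay below all compound 3 arrays in 7.84% of clusters. The compound 3 and control arrays overlapped.

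The mean of STZ was 7.83 ± 0.0064 with compound 6 against 9.08 ± 0.57 in control leaves (log2 scale, SD, n = 3), a difference of -1.25 (SE 0.28) or 2.38-fold lower. With compound 3 the mean was 8.87 ± 0.46 (SD, n = 3), and the difference from control was -0.21 with a 95% interval of -0.82 to 0.40. The sign of this small difference was not stable, since it was 0.04 without compound 3 replicate 3 and 0.11 without control replicate 2. Compound 6 leaves held 2.05-fold less STZ signal than compound 3 leaves, a log2 difference of -1.04 with a 95% interval of -1.65 to -0.43.

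The spread of STZ differed widely between groups. Its SD of 0.0064 over the compound 6 arrays was so small that 6 of 16722 clusters had a smaller one in that group. Over the control arrays 92.4% of clusters had a smaller SD than STZ, and over the compound 3 arrays 88.5%. The model gives every group the same spread, and for STZ this pooled residual SD was 0.42 before the moderation that enters the SE. COR47 was tighter, with a residual SD of 0.16 before moderation against a median of 0.28 over all clusters.

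**Figure D1:**
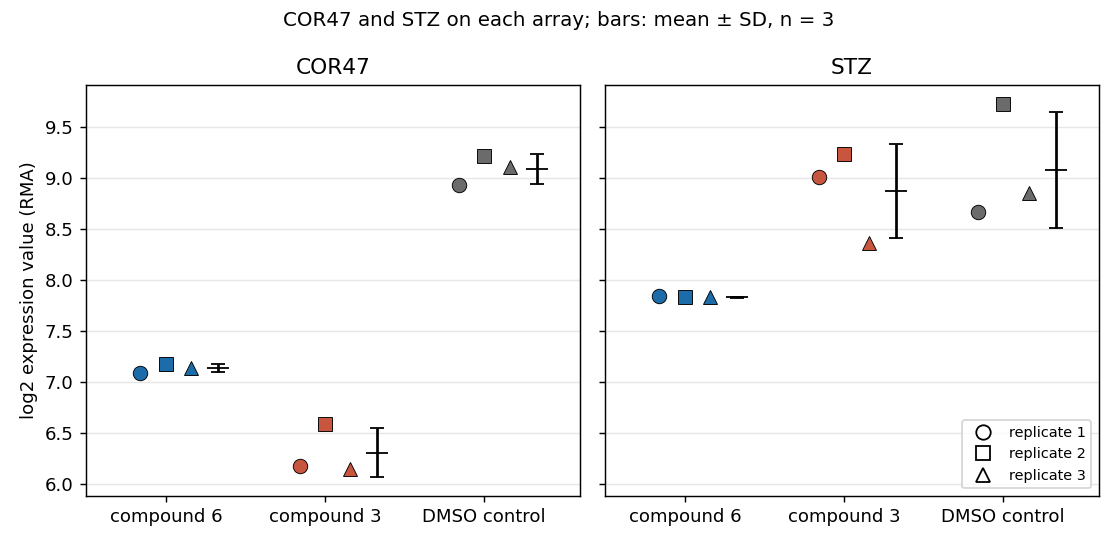
Log2 expression value of COR47 (left) and STZ (right) on each of the 9 arrays, by group, with the mean ± SD (n = 3) beside each group and the symbol giving the replicate. COR47 forms 3 separate levels with compound 3 lowest, while STZ is lowest with compound 6 (7.83 to 7.84) and overlaps between compound 3 and control.

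On these arrays the genes thus stood in opposite order between the compounds at the matched dose and time. This is a description and not a test. COR47 was 0.83 higher and STZ 1.04 lower on the log2 scale with compound 6 than with compound 3. In the direction of each gene, 197 clusters lay above COR47 and 63 below STZ. This was the 1 pair of compounds compared. Of all clusters, 0.299% were called between the compounds at an adjusted p under 0.05, and COR47 and STZ were not among them. In the comparisons with control 11.7% were called for compound 3 and 10.3% for compound 6. Nothing is read from these ranks and shares about COR47 and STZ, which were chosen from the same comparisons. The pattern of STZ, compound 6 below both other groups with compound 3 and control overlapping, was found in 250 clusters or 1.5%.

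**Figure D2:**
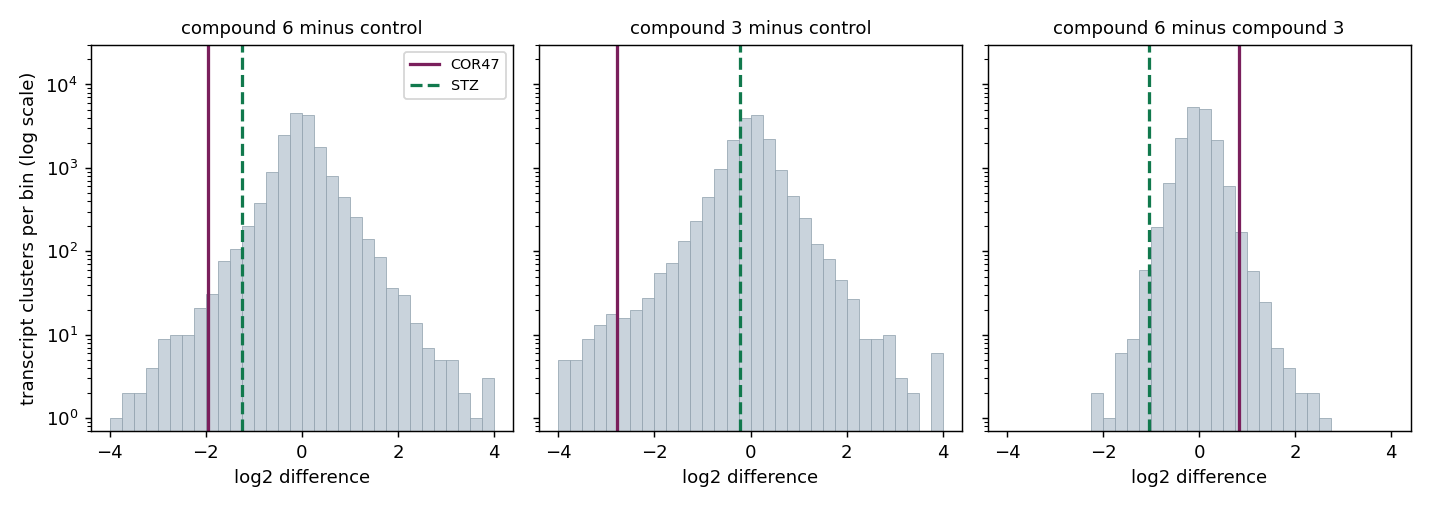
Number of transcript clusters (log scale) by log2 difference in bins of 0.25 for the 3 comparisons, over 16722 clusters, with differences beyond 4 in either direction placed in the outermost bins. Vertical lines mark COR47 (solid) and STZ (dashed), at -1.95 and -1.25 for compound 6 against control, at -2.78 and -0.21 for compound 3 against control, and at 0.83 and -1.04 for compound 6 against compound 3.

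Of 9 further dehydrin loci 5 were measured, and 0 passed with limma in either comparison with control, beside 11.7% of all clusters with compound 3 and 10.3% with compound 6. At an unadjusted p under 0.05 there was 0 with compound 3 and 1 with compound 6, beside 23.1% and 21.0% of all clusters. Their median log2 difference was 0.01 with compound 3 and 0.10 with compound 6, beside medians of 0.01 and -0.023 over all clusters tested. LTI30 (AT3G50970), a dehydrin induced by low temperature, averaged 1.31 ± 0.39 with compound 6, 1.32 ± 0.24 with compound 3 and 1.86 ± 0.41 in control leaves (log2 scale, SD, n = 3). Its differences from control were -0.55 with compound 6 and -0.54 with compound 3, and neither passed (limma, adjusted p = 0.235 and 0.226). HIRD11 (AT1G54410), a small dehydrin, averaged 6.79 ± 0.056 with compound 6, 6.70 ± 0.22 with compound 3 and 6.78 ± 0.066 in control leaves (SD, n = 3). Its differences were 0.01 (95% interval -0.39 to 0.41) with compound 6 and -0.08 (-0.48 to 0.32) with compound 3. The dehydrin LEA (AT2G21490) had differences of 0.28 with compound 6 and 0.30 with compound 3. The listed loci AT4G38410 and AT4G39130 had 0.10 and 0.11 with compound 6, and 0.01 and 0.22 with compound 3. Of the 5, 4 had a mean under 4 over the arrays, and signal over background is not known for them.

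Of 39 listed effector genes of the cold, drought and abscisic acid responses 6 were measured. With limma 0 passed in the comparisons with control, beside 11.7% of all clusters with compound 3 and 10.3% with compound 6. At an unadjusted p under 0.05 there were 2 of 6 with compound 3 and 0 of 6 with compound 6, beside 23.1% and 21.0% of all clusters. The median difference of the list was 0.09 with compound 3 and 0.13 with compound 6, and 4 of the 6 had a mean under 4. COR15A (AT2G42540) and COR15B (AT2G42530), which encode chloroplast proteins that protect membranes in the cold, had compound 6 differences of -0.19 and 0.13 and compound 3 differences of -0.49 and 0.22. COR15A varied most in control leaves, from 2.17 to 4.44. KIN1 (AT5G15960) and KIN2 (AT5G15970), a pair of near-identical cold-induced genes whose signals may not be separable, stood at 0.15 and 0.16 with compound 6 and at -0.25 and -0.04 with compound 3. Their levels were apart, with means of 3.02, 2.62 and 2.87 for KIN1 with compound 6, compound 3 and control. Those of KIN2 were 6.13, 5.94 and 5.97.

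COR27 (AT5G42900), a cold-regulated gene that also acts in the circadian clock, averaged 7.45 ± 0.52 with compound 6, 8.29 ± 0.21 with compound 3 and 7.59 ± 0.16 in control leaves (log2 scale, SD, n = 3). The compound 3 difference was 0.70 and did not pass (limma, adjusted p = 0.0909), and the difference between compound 6 and compound 3 was -0.84 (adjusted p = 0.205). AT4G33980, entered on the list by its locus, had differences of 0.14 with compound 6 and 0.47 with compound 3. Of 23 regulators of the cold and drought response 2 were measured and neither passed with limma or at an unadjusted p under 0.05. Over all clusters 11.7% passed with compound 3 and 10.3% with compound 6, and 23.1% and 21.0% at the unadjusted threshold. Nothing is read from a list of 2 genes. DREB2C (AT2G40340), a transcription factor of the family that binds drought-responsive promoters, had differences of 0.03 with compound 6 and 0.21 with compound 3. Its group means were all under 4. SIZ1 (AT5G60410), a SUMO ligase that acts in cold tolerance, had -0.01 and -0.18. The 49 listed genes of abscisic acid synthesis, breakdown and signalling, 9 of the MAP kinase cascade and 6 of sodium transport were not analysed here.

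In the zinc finger group of STZ calls went both ways. Of 17 further listed loci 9 were measured. Against control, 1 rose and 1 fell with compound 3, and 2 fell with compound 6. Over all clusters 5.6% were called higher and 6.11% lower with compound 3, and 4.72% lower with compound 6. The median difference was 0.46 with compound 3 and 0.17 with compound 6. At an unadjusted p under 0.05 there were 7 of 9 with compound 3 and 4 of 9 with compound 6, beside 23.1% and 21.0% of all clusters. With each compound 5 of the 9 differences lay above 0 and 4 below. Of the 9, 6 had a mean under 4 over the arrays, and signal over background is not known for them. Between the compounds 0 of 9 passed with limma, and 1 did at an unadjusted p under 0.05, beside 10.1% of all clusters.

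AT2G28200 was the listed locus that fell with both compounds. Its log2 values were 6.37, 6.65 and 6.52 with compound 6. With compound 3 they were 6.28, 6.38 and 5.97, and in control leaves 7.15, 7.30 and 7.31. All 6 treated arrays lay below all 3 control arrays, while the compounds overlapped. Over all clusters, all compound 3 arrays lay below all control arrays in 13.4%, and all compound 6 arrays in 12.7%. The difference was -1.04 with compound 3 (SE 0.19, limma, adjusted p = 0.00245) and -0.74 with compound 6 (SE 0.19, adjusted p = 0.0226). The compound 6 call did not survive leaving out compound 6 replicate 1 (-0.67, adjusted p = 0.0905), compound 6 replicate 3 (-0.75, adjusted p = 0.0621), control replicate 2 (-0.72, adjusted p = 0.0675) or control replicate 3 (-0.71, adjusted p = 0.0591). The compound 3 call was kept in 6 of 6 fits without 1 array.

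AT3G53600 rose with compound 3. Its log2 values were 6.18, 6.27 and 4.67 with compound 3, against 3.11, 4.49 and 3.65 in control leaves. The treated arrays all lay above the control arrays, as in 12.9% of clusters, though replicate 3 of compound 3 came close to the highest control. The difference was 1.96 (SE 0.45, limma, adjusted p = 0.0109). It lost its call when compound 3 replicate 1 (1.72, adjusted p = 0.0554), compound 3 replicate 2 (1.67, adjusted p = 0.0563) or control replicate 1 (1.64, adjusted p = 0.0546) was left out. Adjustment over all 38408 clusters also ended it (adjusted p = 0.0532). With compound 6 the values were 4.51, 4.49 and 5.75, a difference of 1.16 from control that did not pass (adjusted p = 0.137). The compound 6 minus compound 3 difference was -0.79 with a 95% interval of -1.76 to 0.18.

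AT5G03510 fell with compound 6, with dim log2 values of 1.88, 2.42 and 1.46 against 2.70, 2.74 and 3.01 in control leaves. All compound 6 arrays lay below all control arrays, as in 12.7% of clusters, and the difference was -0.90 (SE 0.23, limma, adjusted p = 0.024). The call was lost on leaving out compound 6 replicate 1 (-0.88, adjusted p = 0.0705), compound 6 replicate 3 (-0.67, adjusted p = 0.114), control replicate 2 (-0.94, adjusted p = 0.0508) or control replicate 3 (-0.80, adjusted p = 0.0782). It was also lost with adjustment over all 38408 clusters (adjusted p = 0.0568) and with only the 2 groups in the fit (adjusted p = 0.0505). With compound 3 its values lay between 2.16 and 2.29, and the difference of -0.59 did not pass (adjusted p = 0.137).

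ZAT7 (AT3G46090), a relative of STZ, and its neighbour on the list AT3G46080 had their highest means with compound 3. ZAT7 averaged 3.77 ± 0.065 with compound 6, 4.46 ± 0.47 with compound 3 and 3.56 ± 0.61 in control leaves (log2 scale, SD, n = 3). Its compound 3 difference of 0.90 did not pass (limma, adjusted p = 0.0667). AT3G46080 averaged 8.57 ± 0.52, 9.23 ± 0.079 and 8.41 ± 0.69 in the same groups, with a compound 3 difference of 0.82 (adjusted p = 0.126). Of the other listed zinc finger loci AT2G45120, AT3G60580, AT2G28710 and AT1G02030 had differences of 0.57, 0.46, -0.25 and -0.25 with compound 3, and of 0.34, 0.42, -0.19 and -0.18 with compound 6. None of these 4 passed with limma, and all had a mean under 4. None of the 9 had the arrays of STZ's order, with compound 6 below both other groups and compound 3 overlapping control. That pattern was found in 1.5% of all clusters, so nothing is read from its absence among 9.

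**Figure D3:**
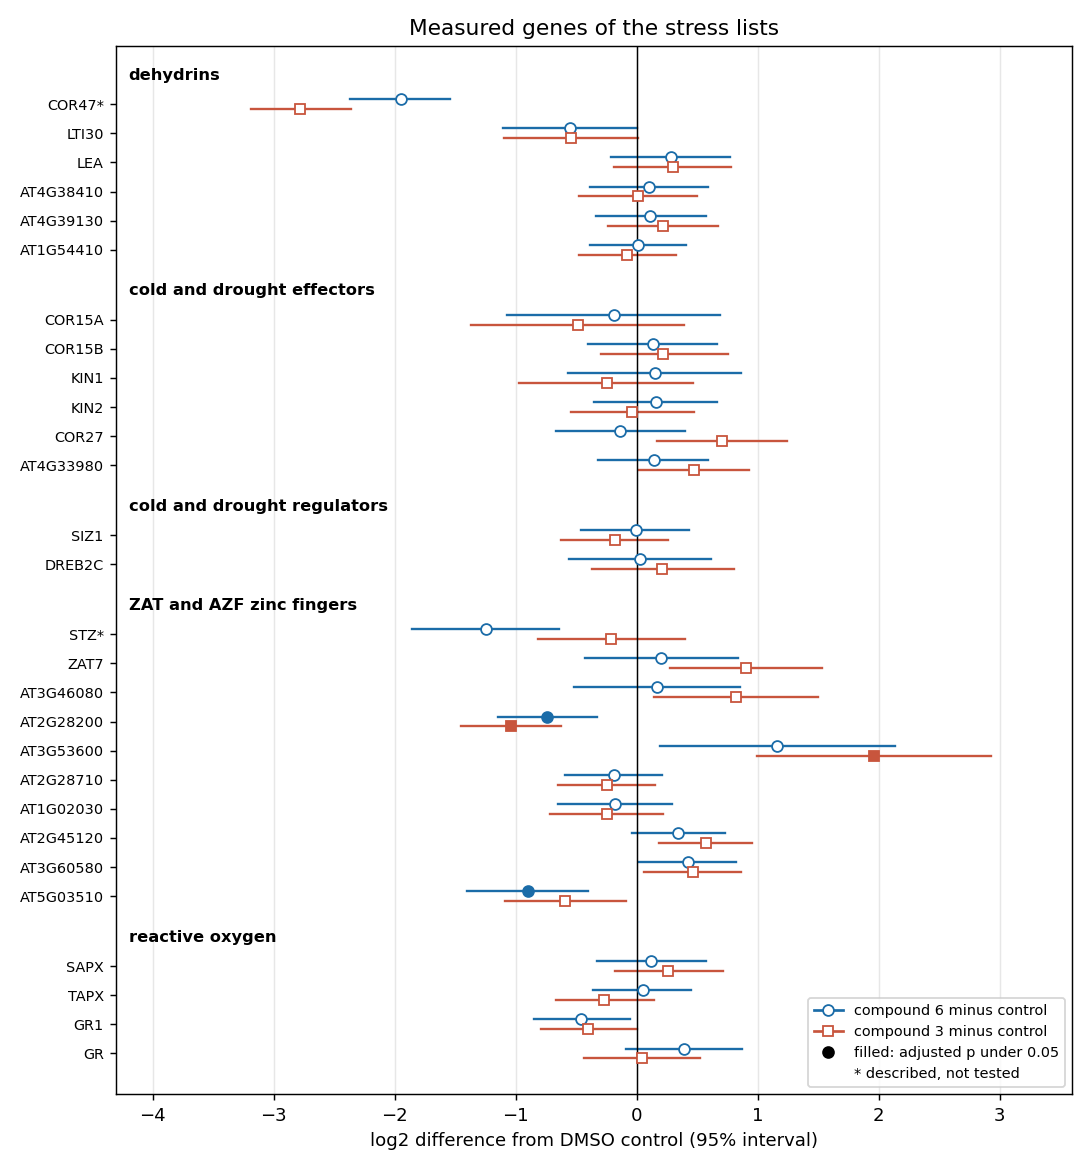
Log2 difference from DMSO control with its 95% interval for compound 6 (circles) and compound 3 (squares), for the measured genes of 5 stress lists. Filled symbols passed at an adjusted p under 0.05 (AT2G28200 with both compounds, AT3G53600 with compound 3, AT5G03510 with compound 6), and COR47 and STZ, marked with an asterisk, were described and not tested.

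The genes that remove reactive oxygen, a process in which STZ is known to act, gave 0 calls of 4 measured in both comparisons with control (limma), beside 11.7% of all clusters with compound 3 and 10.3% with compound 6. At an unadjusted p under 0.05 there was 1 of 4 with compound 3 and 1 of 4 with compound 6, close to the 23.1% and 21.0% of all clusters. SAPX (AT4G08390) and TAPX (AT1G77490), the ascorbate peroxidases of the chloroplast stroma and thylakoid, had differences of 0.12 and 0.05 with compound 6, and of 0.26 and -0.27 with compound 3. GR1 (AT3G24170), the cytosolic glutathione reductase, averaged 9.37 ± 0.094 with compound 6, 9.43 ± 0.14 with compound 3 and 9.83 ± 0.13 in control leaves (SD, n = 3). Its differences from control, -0.46 and -0.40, did not pass (limma, adjusted p = 0.159 and 0.215). GR (AT3G54660), the glutathione reductase of plastids and mitochondria, had 0.39 with compound 6 and 0.04 with compound 3. ORA47 (AT1G74930), an early jasmonate response factor, had 0.08 with compound 6 and 0.01 with compound 3, and the heat shock gene ATHSP22.0 (AT4G10250) had 0.01 and 0.12.

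The type-A response regulators, which cytokinin induces, were listed with earlier results of these data known, so they are no independent check of the treatment. Of 10 listed 2 were measured, and these 2 were called higher with each compound. Over all clusters 5.62% were called higher with compound 6 and 5.6% with compound 3. RR16 (AT2G40670) differed from control by 1.97 with compound 6 and 2.62 with compound 3 (limma, adjusted p = 0.000319 and 2.31e-05). ARR15 (AT1G74890) was the 1 of 30 measured list genes called between the compounds. Its level was 5.57 ± 0.48 with compound 6 against 7.45 ± 0.26 with compound 3 (log2 scale, SD, n = 3), a difference of -1.88 (limma, adjusted p = 0.00654), beside 0.0837% of all clusters called lower. That call was lost with adjustment over all 38408 clusters (adjusted p = 0.0846). At an unadjusted p under 0.05, 4 of the 30 list genes passed between the compounds, near the 10.1% of all clusters. Over all lists, 3 of 30 measured genes rose and 1 fell with compound 3, and 2 rose and 2 fell with compound 6. These shares stand beside 11.7% and 10.3% called over all clusters. The 2 type-A response regulators gave 2 of the 3 rises with compound 3 and the 2 rises with compound 6. The shares are thus not those of the stress lists alone.

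The genes nearest to COR47 in pattern over the 9 arrays all lack a symbol in the gene table. The measure was the root-mean-square difference between log2 values after each gene was centred on its own mean. AT4G33420, AT5G64190 and AT2G39710 differed from COR47 by 0.13, AT5G66440 by 0.16 and AT1G54575 by 0.19, beside a median of 1.2 over all clusters. AT4G33420 had values of 9.28, 9.37 and 9.22 with compound 6, of 8.33, 8.71 and 8.53 with compound 3, and of 11.2, 11.5 and 11.6 in control leaves. Its differences from control were -2.13 with compound 6 and -2.90 with compound 3, close to those of COR47. The other 4 lay between -2.11 and -1.83 with compound 6 and between -2.95 and -2.60 with compound 3.

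The genes nearest to STZ were DLAH (AT1G30370), a DAD1-like acylhydrolase, at 0.19, and ARL (AT2G44080), an ARGOS-like gene that promotes organ growth, at 0.24. They were followed by AT2G22880 at 0.26, and AT3G04320 and AT1G54020 at 0.27, beside a median of 0.69 over all clusters. AT3G04320 and AT1G54020 were dim, with group means under 4, and lacked the separation of STZ. Their highest compound 6 arrays, at 3.10 and 1.96, lay above their lowest compound 3 arrays, at 2.91 and 1.94. DLAH had values of 5.47, 5.85 and 5.54 with compound 6, of 6.57, 6.73 and 6.13 with compound 3, and of 6.22, 7.05 and 6.42 in control leaves. As for STZ, the compound 6 arrays lay lowest and the other groups overlapped. The differences of these 5 genes from control lay between -1.25 and -0.80 with compound 6 and between -0.37 and -0.08 with compound 3. COR47 and STZ themselves differed by 1.11 in this measure. All these genes were picked for their likeness, so none of their differences is a test.

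**Figure D4:**
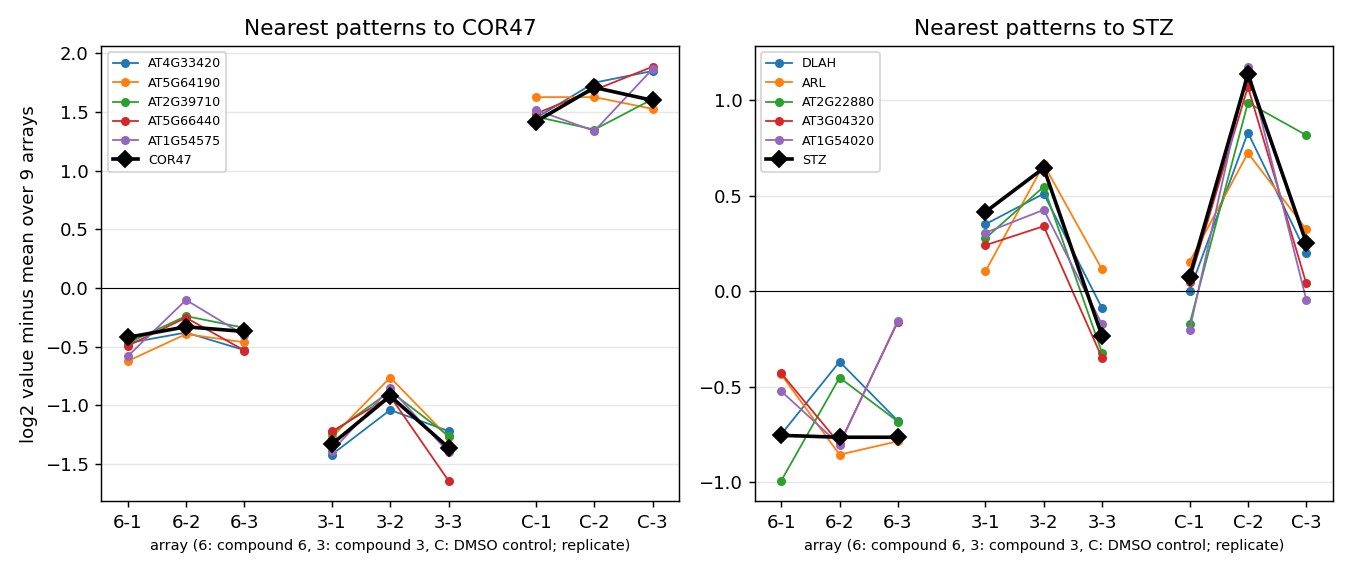
Log2 value minus the gene's own mean over 9 arrays for COR47 and its 5 nearest patterns (left) and STZ and its 5 nearest patterns (right), with lines joining the 3 arrays of a group for each gene. The COR47 set falls into 3 levels. The STZ set has its lowest group means with compound 6, with overlap for AT3G04320 and AT1G54020, and peaks on control replicate 2.

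The nearest measured genes beside COR47 were AT1G20430 on one side and AT1G20460, beyond ERD10, on the other. AT1G20430 averaged 6.53 ± 0.46 with compound 6, 6.53 ± 0.37 with compound 3 and 5.67 ± 0.25 in control leaves (log2 scale, SD, n = 3). Its difference of 0.86 passed with compound 3 (limma, adjusted p = 0.0495) and not with compound 6 (0.86, adjusted p = 0.0534), although all compound 6 arrays lay above all control arrays, as in 11.9% of clusters. The compound 3 call was kept in 0 of 6 fits without 1 array, with adjusted p between 0.061 and 0.21. AT1G20460 differed by -0.53 with compound 6 and -0.64 with compound 3, and neither passed (adjusted p = 0.198 and 0.0956), though without control replicate 3 the compound 3 difference did (-0.86, adjusted p = 0.0259). Beside STZ, AT1G27710 had 0.08 and 0.18 and AT1G27750 had -0.35 and -0.53, with adjusted p between 0.239 and 0.906.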

How the data were processed

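Expression was measured on 1 Affymetrix array per sample, 9 in all. The authors deposited log2 values per transcript cluster, and the submitters' processing notes name oligo, RMA and limma with no versions. The genome build: not given in the sources used here. The base of the logarithm was taken as 2 from the range of the values. Of 38408 clusters 16722 were paired with 1 gene, 759 with several, and 20927 are not named here. Names were updated through the RefSeq table of TAIR10.1, in which 16574 of the 16722 were found and from which no coordinates are used.

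From these values a linear model over all 9 arrays was fitted with limma 3.58.1 in R 4.3.3 (lmFit, eBayes, 6 residual and 7.89 prior degrees of freedom). Tests were two-sided with Benjamini-Hochberg adjustment over the 16722 clusters, and an adjusted p under 0.05 was called. The fit was tested on simulated data. Folds are 2 to the power of the difference. Intervals cover 95%, SE is the moderated standard error and SDs are over 3 arrays. The number of arrays limits the precision. Figures used matplotlib 3.10.9 in Python 3.11.15.

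COR47, STZ and the gene lists were chosen with earlier results of these data known. Lists came from textbook knowledge. The genes named were all measured dehydrin and zinc finger loci, from each other list up to 4 called or otherwise up to 2 of greatest change, the 5 nearest patterns to each gene and its nearest measured neighbours. A gene with several clusters was represented by the one of highest mean. COR15B, KIN1, KIN2, AT4G33980, SAPX and TAPX exceed that rule and were named to account for short lists. P-values measure the spread between samples that the labels call biological replicates. Samples sharing a replicate number did not deviate together (correlations of deviations from -0.375 to 0.261), so the numbers were not treated as pairs. Alternatives were a repeated quantile normalization, 2 centrings (the one over clusters of 1 gene added after seeing the data), other cluster sets (all clusters, or those with a mean of at least 4), only the 2 groups compared, a trended and robust variance, a replicate block and leaving out each array.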

Additional observations from a re-analysis of the deposited data

How the results depend on the processing

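COR47 kept its direction in all 3 comparisons under each alternative that gave it a new difference. Leaving out 1 array could not change the direction, since its groups did not overlap. The fits with only the 2 groups compared or with the replicate block leave differences of group means unchanged in this balanced design. Without 1 array its difference lay between -2.92 and -2.70 for compound 3 against control, between -2.03 and -1.89 for compound 6 against control, and between 0.75 and 0.97 for compound 6 against compound 3. STZ lay between -1.46 and -0.93 for compound 6 against control and between -1.29 and -0.85 for compound 6 against compound 3, but between -0.42 and 0.11 for compound 3 against control. Subtracting each array's median, taken over all 38408 clusters, moved the median difference of all clusters to -0.15 with compound 3 and -0.27 with compound 6. It moved COR47 to -2.19 with compound 6, through the shift common to all clusters. The same centring gave 591 clusters higher and 1424 lower with compound 3, against 936 and 1021, and 551 higher and 1569 lower with compound 6, against 939 and 789.

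With all 38408 clusters tested, 3360 were called for compound 3, 3144 for compound 6 and 3 between the compounds, against 1957, 1728 and 50, and 0 list genes between the compounds against 1. With dim clusters left out 92 were called between the compounds. Without 1 array, 1319 to 1633, 1227 to 1499 and 20 to 29 clusters were called in these comparisons, and 3 to 6, 2 to 4 and 1 list genes. The fit with the replicate block left the differences of COR47 and STZ as they were and called 1648, 1453 and 29 clusters. It ended the compound 3 call of AT1G20430 (adjusted p = 0.0871) and no call of a list gene. Calls were gained by ZAT7 with compound 3 without compound 3 replicate 1 (1.13, adjusted p = 0.043) and without control replicate 2 (1.23, adjusted p = 0.0107), by AT3G46080 without control replicate 2 (1.15, adjusted p = 0.0294), and under that centring by AT5G03510 with compound 3 (-0.74, adjusted p = 0.0438) and GR1 with compound 6 (-0.70, adjusted p = 0.0483). AT1G20430 passed with compound 6 without dim clusters (adjusted p = 0.0335), with the intensity trend (adjusted p = 0.0465) and without compound 6 replicate 1 (1.05, adjusted p = 0.0368). Of the 5 nearest patterns, Pearson r in place of the root-mean-square difference shared 4 for COR47 and 1 for STZ. The cause of these changes was not tested.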

Other observations

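In all, 11 measured genes carry a stress word (cold, dehydration, drought, salt, osmotic, abscisic, low temperature, freezing or desiccation) in their gene table name, 5 of them already on a list. This set was chosen after the values were seen and is given as values only. Its median difference was -0.14 with compound 6 and -0.11 with compound 3. SIS (AT5G02020), salt induced serine rich, had log2 values of 7.15, 7.06 and 6.88 with compound 6, of 7.87, 7.89 and 7.85 with compound 3, and of 7.50, 8.02 and 8.45 in control leaves. Its differences were -0.96 with compound 6 and -0.12 with compound 3, the same order of groups as STZ. SRC2 (AT1G09070), named for a soybean gene regulated by cold, had 6.94, 6.46 and 6.97 with compound 6, 7.17, 7.12 and 7.24 with compound 3, and 7.49, 7.79 and 7.43 in control leaves. DI19 (AT1G56280) and DI21 (AT4G15910), both named as drought-induced, differed from control by 0.08 and -0.02 with compound 6 and by -0.11 and -0.02 with compound 3. SAT32 (AT1G27760), named for salt tolerance, differed by -0.16 and -0.37, and DOR (AT2G31470), named as a drought tolerance repressor, by 0.45 and 0.31.

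The arrays of compound 3 fell into the same order for COR47 and STZ, with replicate 2 highest and replicate 3 lowest, and so did the control arrays, with replicate 2 highest and replicate 1 lowest. Over all clusters 23.4% had STZ's array order in the compound 3 arrays and 15.2% in the control arrays. Over the compound 6 arrays STZ spanned 0.011, too little for an order to be read. COR47 lacked that order, which 2519 clusters or 15.1% had. Of all clusters, 708 or 4.23% had STZ's array order in both the compound 3 and the control arrays.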
